A study of Homo sapiens with 2 samples.

Results

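The genes described here encode the hydroxylases and chaperones that modify and fold procollagen in the endoplasmic reticulum. The 10 members were picked by name, with earlier results of these data known, and all 10 were found among the 38606 genes counted. They are the prolyl 4-hydroxylase alpha subunits P4HA1, P4HA2 and P4HA3, the lysyl hydroxylases PLOD1, PLOD2 and PLOD3, the prolyl 3-hydroxylase P3H1 with its partner CRTAP, and the collagen chaperones SERPINH1 and FKBP10. Human mesenchymal stem cells of adipose origin, bought commercially, were starved overnight when nearly confluent. Cells then either stayed untreated or were given transforming growth factor beta 1 (TGFB1) at 10 ng/mL for 24 hours. The cells were lifted with trypsin, frozen and sequenced as single cells, giving 1 library per condition. The series concerns melanoma and its stroma and the cytokine IL11.

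Collagen chains are hydroxylated before they form a triple helix. Prolyl 4-hydroxylase, built from alpha subunits and the beta subunit P4HB, makes the hydroxyproline that keeps the helix stable. Lysyl hydroxylases make hydroxylysine, which carries sugars and takes part in cross-links, and PLOD2 acts on the telopeptide lysines at the chain ends. P3H1 and CRTAP form a complex with the isomerase PPIB, SERPINH1 (also called HSP47) binds the folded helix, and FKBP10 is a prolyl isomerase that also works with PLOD2. The enzymes need iron, ascorbate and 2-oxoglutarate, and activated fibroblasts are known to raise several of them.

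The untreated library held 8101 cells and 169011524 UMIs (unique molecular identifiers, each standing for 1 captured transcript). The TGFB1 library held 12555 cells and 208991941 UMIs. Values are CPM, a gene's UMIs scaled to a library total of 1000000, and ratios are TGFB1 over untreated. With 1 library per condition there is no replicate check and no test of the treatment. The bracketed 95% intervals cover counting error only and compare these libraries, not the conditions. All 6 mesenchymal stromal markers looked at reached 5 CPM, although ENG did so only just (6.67 and 7.85 CPM). Of 5 immune markers 4, and of 5 endothelial markers 4, stayed under 1 CPM in both libraries. The libraries shared 18 cell barcodes.

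Of the 10 genes, 4 were at least 1.5-fold higher in the TGFB1 library, and none was at least 1.5-fold lower. Of the 10928 genes that reached 5 CPM in at least 1 library, 8.45% lay higher and 14.2% lower by that measure. P4HA3 and PLOD2 also passed 2-fold, as did 3.61% of those genes upward, and no member passed 2-fold downward, as did 6.05%. The 4 genes were all 3 prolyl 4-hydroxylase alpha subunits and PLOD2. The other 6 had ratios between 0.828 and 1.21. The median log2 ratio was 0.18 over the 10 genes and -0.10 over all genes at 5 CPM or more.

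**Figure D1:**
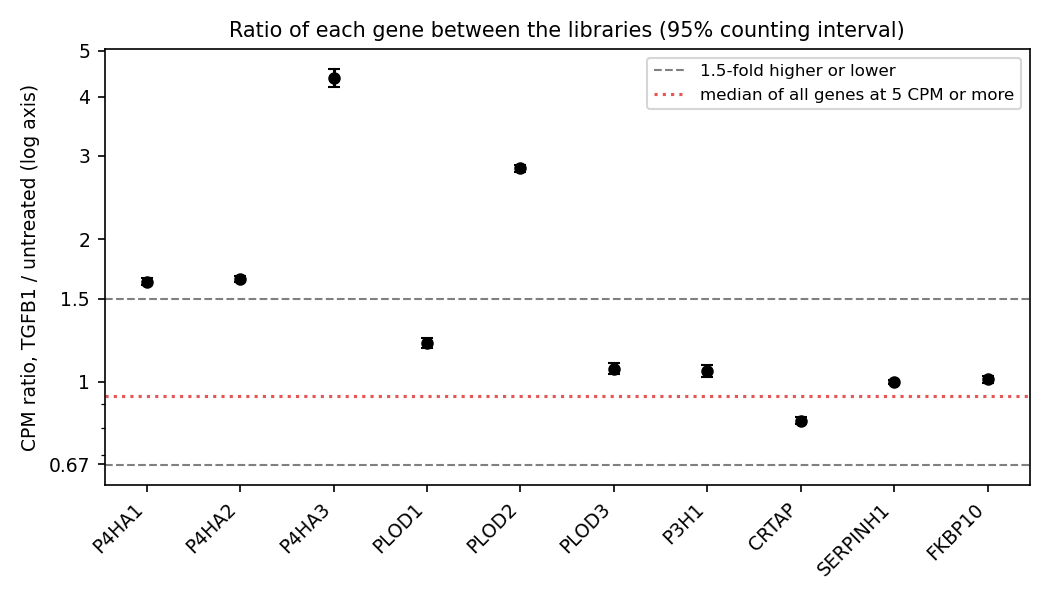
CPM ratio of each gene, TGFB1 over untreated, on a log axis, with 95% counting intervals; dashed lines mark 1.5-fold, and the dotted line marks the median of all genes at 5 CPM or more. P4HA3 and PLOD2 lie highest, P4HA1 and P4HA2 just above the upper dashed line, and the other 6 genes between the dashed lines.

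P4HA1 encodes the alpha subunit regarded as the main form in most cells. It was at 122 CPM without and 199 CPM with TGFB1, a ratio of 1.63 (1.60 to 1.66). P4HA2, a second form, was at 154 and 254 CPM, a ratio of 1.65 (1.63 to 1.68). These genes thus had nearly the same ratio. P4HA3, the least studied of the alpha subunits, was at 14.9 and 65.3 CPM from 2515 and 13638 UMIs. Its ratio of 4.39 (4.20 to 4.58) was the largest of the 10, and exceeded that of 99.4% of the genes at 5 CPM or more. All 3 are minus-strand genes (GENCODE release 29, GRCh38): P4HA1 spans 73007217 to 73096974 of chromosome 10, P4HA2 spans 132191838 to 132295315 of chromosome 5 and P4HA3 spans 74235801 to 74311657 of chromosome 11.

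The 3' part of P4HA3 overlaps another gene that differed between the libraries. PPME1, which encodes a methylesterase of protein phosphatase 2A, lies on the plus strand from 74171099 to 74254703 and shares 18903 bases of its span with P4HA3. Of 4009 annotated exon bases of P4HA3, 887 lie within that span and 166 are also exon bases of PPME1. PPME1 was at 64.8 and 349 CPM, a ratio of 5.39 (5.28 to 5.50). No source used here says whether counting used the strand, so reads of the 2 genes cannot be told apart for certain. In cells thinned to an equal depth, PPME1 was at 415 CPM in TGFB1 cells with a P4HA3 UMI and 286 CPM in those without, and at 83.7 and 55.6 CPM in untreated cells. In all thinned cells (7646 untreated and 9330 TGFB1), P4HA3 was at 15.5 and 62.9 CPM, a ratio of 4.07. In thinned cells without any PPME1 UMI (5398 untreated and 2435 TGFB1), P4HA3 was at 14.2 and 46.7 CPM, a ratio of 3.28. The antisense transcript P4HA3-AS1 was at 0.0237 and 0.0766 CPM. The part of PPME1 in the P4HA3 ratio was not tested.

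P4HA2 also overlaps a gene on the other strand, PDLIM4, which encodes an actin-associated protein. PDLIM4 was at 75.0 and 124 CPM, a ratio of 1.66 (1.62 to 1.69), close to that of P4HA2 itself. The 2 genes share no annotated exon base, but PDLIM4 lies wholly within the span of P4HA2. With the use of strand not given, their reads cannot be told apart for certain either. SLC22A4, also on the other strand, spans 138 exon bases of P4HA2 and was at 5.84 and 3.88 CPM. PLOD3 shares 429 exon bases with ZNHIT1, which was at 132 and 131 CPM.

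The lysyl hydroxylases differed from each other. PLOD2 was at 104 CPM without TGFB1 and 294 CPM with it, from 17595 and 61432 UMIs, a ratio of 2.82 (2.78 to 2.87). This was larger than the ratio of 98.5% of the genes at 5 CPM or more. PLOD1 was at 56.7 and 68.4 CPM, a ratio of 1.21 (1.18 to 1.24). PLOD3, whose product also adds sugars to hydroxylysine, was at 54.0 and 57.6 CPM, a ratio of 1.07 (1.04 to 1.10). The intervals of the 3 genes did not overlap. PLOD1 spans 11934205 to 11975538 of chromosome 1 (plus strand), PLOD2 spans 146069440 to 146163653 of chromosome 3 (minus) and PLOD3 spans 101205977 to 101218420 of chromosome 7 (minus).

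The stretches upstream of the PLOD2 and PLOD1 starts are shown because 1 of these paralogues passed 1.5-fold and the other did not, and that of P4HA1 because it passed too. They are from the RefSeq promoter table (GRCh38.p14), which held 8 of the 10 genes, without P4HA3 and FKBP10. Each is read 5′ to 3′ on the gene's strand and holds no exon base of GENCODE release 29. Capitals mark ACGTG on either strand, a form of the core bound by hypoxia-inducible factors among others. Other forms of that core, such as GCGTG, which the PLOD1 stretch holds, were not marked or counted. The PLOD2 stretch is chr3:146161185-146161434, within an intron of longer annotated transcripts, the PLOD1 stretch chr1:11934467-11934693, likewise within its gene, and the P4HA1 stretch chr10:73096975-73097116, outside it.
PLOD2: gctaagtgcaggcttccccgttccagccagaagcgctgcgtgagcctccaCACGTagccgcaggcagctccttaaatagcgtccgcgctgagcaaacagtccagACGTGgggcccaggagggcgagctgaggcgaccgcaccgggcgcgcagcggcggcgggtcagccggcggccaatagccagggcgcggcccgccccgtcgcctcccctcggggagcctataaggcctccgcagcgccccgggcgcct
PLOD1: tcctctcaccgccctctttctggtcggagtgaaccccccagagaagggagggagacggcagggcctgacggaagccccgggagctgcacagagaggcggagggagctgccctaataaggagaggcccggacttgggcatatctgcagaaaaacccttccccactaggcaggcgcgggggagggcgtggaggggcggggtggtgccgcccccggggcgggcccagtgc
P4HA1: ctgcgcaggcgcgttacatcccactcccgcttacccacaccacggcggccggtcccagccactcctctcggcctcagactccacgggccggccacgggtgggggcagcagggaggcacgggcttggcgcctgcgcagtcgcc
ACGTG was found 2 times in the 250 bases before the PLOD2 start, starting 200 and 146 bases from it. It was found once in the same window of P4HA1, 86 bases from the start and within an exon that is not shown, and once in the second of the SERPINH1 windows, 184 bases from that start. The windows of P4HA2, PLOD1, PLOD3, P3H1 and CRTAP and the first of SERPINH1 did not hold it. Of 35116 windows of that length in the table, 18.5% held it. CAGAC, part of the element bound by SMAD proteins, was found on either strand once each for P4HA1, P4HA2 and PLOD2, and not for PLOD1, PLOD3, P3H1, CRTAP or either SERPINH1 window. Of all windows, 38.0% held CAGAC. These matches are letters only and do not show binding.

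The genes of the prolyl 3-hydroxylase complex and the chaperones differed little. P3H1 was at 48.5 and 51.2 CPM, a ratio of 1.06 (1.03 to 1.09). CRTAP, which has no enzyme activity of its own, was at 163 CPM without TGFB1 and 135 CPM with it, a ratio of 0.828 (0.814 to 0.841). It was the 1 member whose ratio stayed below 1 in all 11 alternative scalings and cell selections, up to 0.945 with median-of-ratios factors. SERPINH1 was at 439 and 438 CPM, a ratio of 0.998 (0.988 to 1.01), and took both sides of 1 among the alternatives (0.969 to 1.14). FKBP10 was at 145 and 146 CPM, a ratio of 1.01 (0.996 to 1.03), with alternatives from 0.993 to 1.16. P3H1 lies on chromosome 1 from 42746335 to 42767084, CRTAP on chromosome 3 from 33113979 to 33147773, SERPINH1 on chromosome 11 from 75562056 to 75572783 and FKBP10 on chromosome 17 from 41812680 to 41823217.

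The make-up of each enzyme family was compared as a share of the family's own UMIs, which does not depend on how libraries are scaled. P4HA3 made up 5.12% (4.92 to 5.31) of alpha subunit UMIs in untreated and 12.6% (12.4 to 12.8) in TGFB1 cells. The share of P4HA1 was 41.9% untreated and 38.3% with TGFB1, and that of P4HA2 53.0% and 49.1%. PLOD2 made up 48.5% (47.9 to 49.0) of lysyl hydroxylase UMIs untreated and 70.0% (69.7 to 70.3) with TGFB1. PLOD1 took 26.4% and 16.3%, and PLOD3 25.2% and 13.7%. The TGFB1 library was thus richer in PLOD2 relative to both paralogues. Per UMI of the beta subunit P4HB (375 and 403 CPM), there were 0.776 alpha subunit UMIs untreated and 1.28 with TGFB1.

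**Figure D2:**
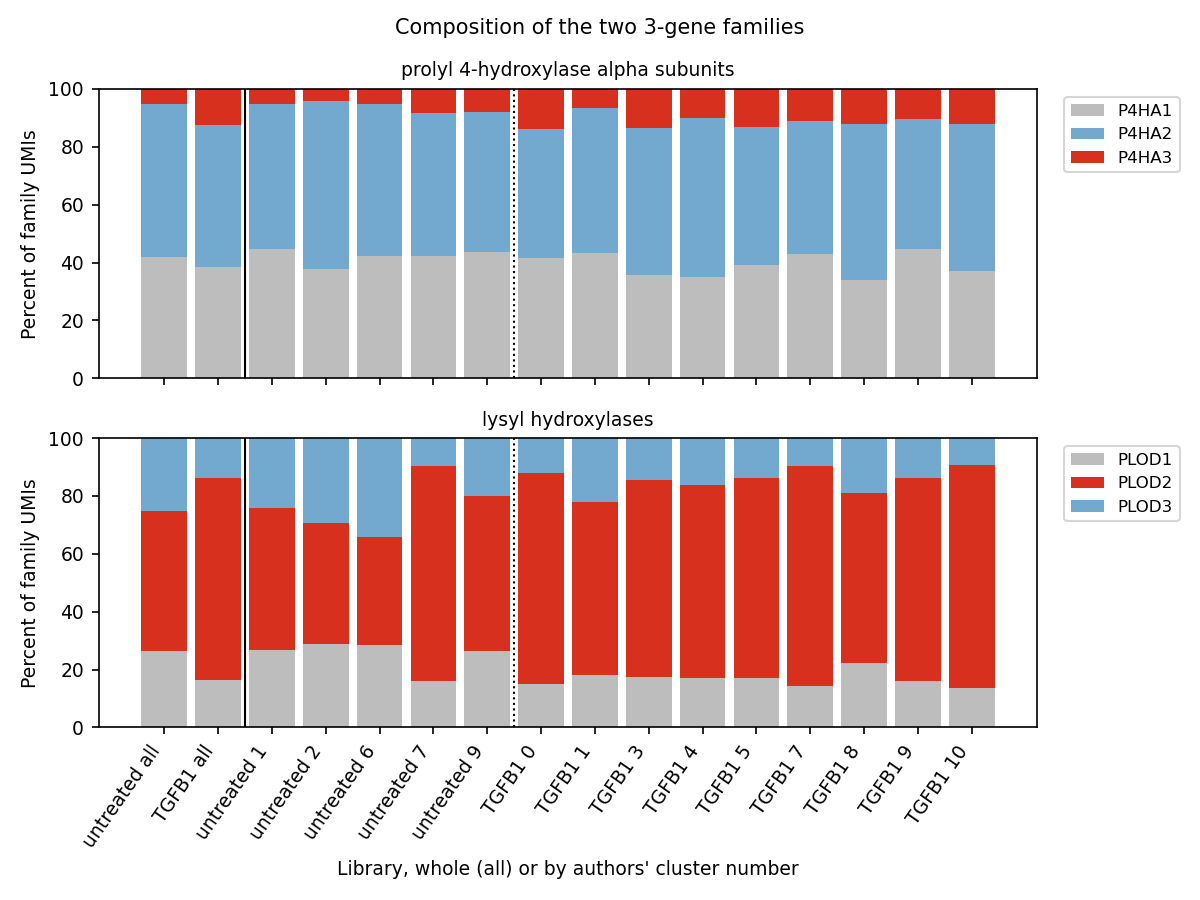
Percent of family UMIs (vertical axis) held by each prolyl 4-hydroxylase alpha subunit (upper panel) and each lysyl hydroxylase (lower panel), for each whole library and each cluster of 50 or more cells. The PLOD2 share is 48.5% in the whole untreated and 70.0% in the whole TGFB1 library, and is 74.3% in untreated cluster 7.

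The members were also set against collagen chain UMIs, which stand for the RNA of their substrate and not for protein. Within a library all members are divided by the same collagen sum, so their order is that of the CPM ratios. The 24 collagen chain genes listed held 3353501 UMIs untreated and 5215985 with TGFB1. Per 1000 collagen UMIs, PLOD2 had 5.25 untreated and 11.8 with TGFB1, and P4HA3 had 0.750 and 2.61. P4HA1 (6.15 and 7.96) and P4HA2 (7.76 and 10.2) were also higher relative to collagen. The other 6 were lower: PLOD1 had 2.86 and 2.74, PLOD3 2.72 and 2.31, P3H1 2.45 and 2.05, FKBP10 7.28 and 5.87, SERPINH1 22.1 and 17.5 and CRTAP 8.23 and 5.42. CRTAP, which also had the lowest CPM ratio, was at 0.658 of its untreated value.

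Cells were compared one by one after each was thinned to 7500 UMIs, since untreated cells held a median of 19249 and TGFB1 cells of 15134 UMIs. Thinning left out 455 untreated and 3225 TGFB1 cells. PLOD2 was detected in 43.6% (42.5 to 44.7) of the untreated cells left and in 81.6% (80.8 to 82.4) of the TGFB1 cells left. Before thinning the shares were 67.6% and 87.3%. For P4HA3 the shares were 10.5% (9.82 to 11.2) and 35.1% (34.1 to 36.0), against 23.2% and 52.8% before. P4HA1 was detected in 53.7% and 72.6% of cells after thinning (78.2% and 81.8% before) and P4HA2 in 64.2% and 82.5% (86.4% and 86.6% before). Before thinning, P4HA1 and P4HA2 were therefore seen in similar shares of cells in both libraries, while the thinned shares lay apart.

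The other genes had thinned shares that lay closer together. SERPINH1 was seen in 94.3% of thinned cells of each library (97.4% and 93.7% before). FKBP10 was seen in 64.7% and 66.4% (88.1% and 78.2% before), P3H1 in 30.5% and 31.6% (57.7% and 49.8% before) and PLOD3 in 32.5% and 34.4% (61.1% and 53.3% before). PLOD1 was detected in 33.3% and 40.0% (61.3% and 57.4% before), and CRTAP in 69.3% and 63.0% (90.0% and 76.3% before). Since no cell type here should lack these genes, the level that free RNA gives could not be measured. As a gene not expected in these cells, leukocyte PTPRC was detected in 0.170% and 0.171% after thinning (0.395% and 0.558% before).

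PLOD2 had the largest variance over mean of the members in thinned cells, a measure that depends on a gene's level. That value (1 for pure counting noise) was 1.76 untreated and 1.63 with TGFB1. The other 9 genes had values from 0.990 to 1.33. The median thinned TGFB1 cell held 2 PLOD2 UMIs and the highest held 24, while the median untreated cell held 0 and the highest 15. For P4HA3 the value was 1.08 untreated and 1.22 with TGFB1.

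**Figure D3:**
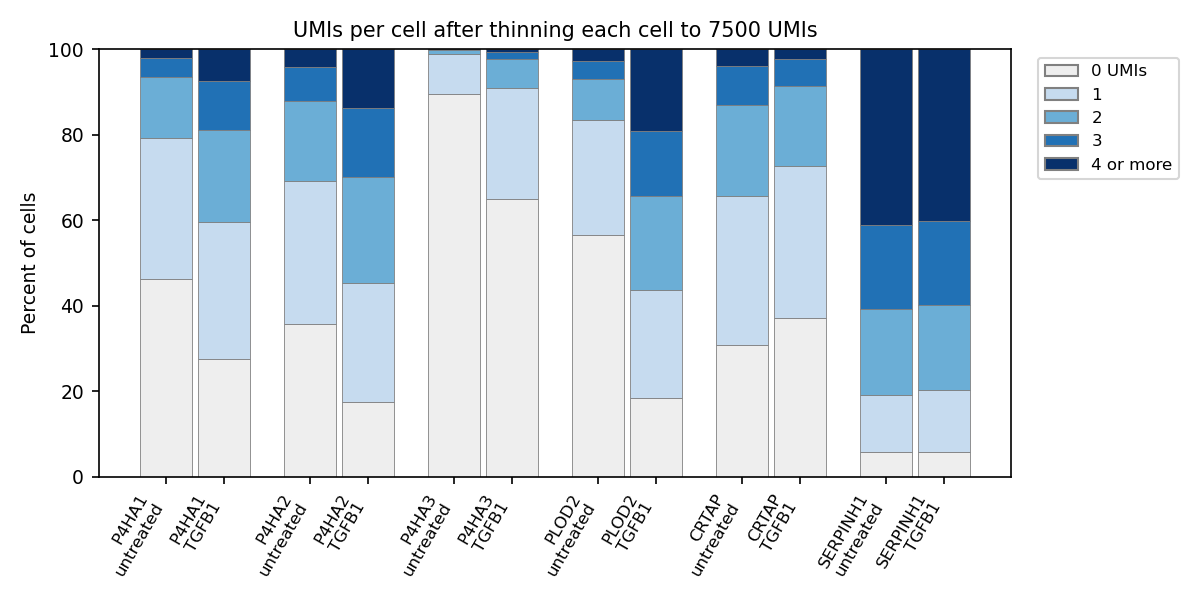
Percent of cells (vertical axis) holding 0, 1, 2, 3 or 4 or more UMIs of 6 of the genes after each cell was thinned to 7500 UMIs, by library. Cells without a PLOD2 UMI are 56.4% of untreated and 18.4% of TGFB1 cells, and the bars of SERPINH1 are nearly alike.

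The authors' clusters largely separated the libraries. Clusters 1, 2 and 6 held 7623 of 8101 untreated cells, and clusters 0, 3, 4, 5 and 8 held 11833 of 12555 TGFB1 cells. The genes used for clustering are not stated and may include these, so levels by cluster are a description. In all, 14 groups of a library and a cluster held 50 or more cells, 5 untreated and 9 with TGFB1.

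PLOD2 had its highest levels in cluster 7 and cluster 10. It was at 452 CPM in TGFB1 cells of cluster 7, 409 CPM in TGFB1 cells of cluster 10 and 389 CPM in untreated cells of cluster 7. The intervals of neighbours in this order overlapped. TGFB1 clusters 0 (333 CPM), 9 (329 CPM), 5 (293 CPM) and 4 (272 CPM) followed, with overlapping neighbours. Then came TGFB1 cluster 3 at 256 CPM, cluster 8 at 167 CPM and the 56 TGFB1 cells of cluster 1 at 157 CPM. Untreated clusters 9 (139 CPM), 1 (98.7 CPM), 2 (88.3 CPM) and 6 (62.9 CPM) were lowest. The summed level of 5 cycling markers was 1145 CPM in untreated cluster 6 and 794 CPM in TGFB1 cluster 8, and between 5.83 and 36.7 CPM in the other groups. Its part in the PLOD2 levels was not tested. The 113 TGFB1 cells of cluster 10 had the highest summed level of 6 mural markers, 268 CPM against 32.3 to 108 CPM in the other groups. They also had the highest sum of 5 cartilage markers, 92.0 CPM against 9.85 to 28.5 CPM. The part of these markers in the PLOD2 level of cluster 10 was not tested.

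P4HA3 differed between the TGFB1 clusters mainly through the 56 cells of cluster 1. It was at 73.1 CPM in cluster 3, 71.7 CPM in cluster 5, 69.9 CPM in cluster 0, 62.6 CPM in cluster 7 and 62.4 CPM in cluster 10. Clusters 9 (54.2 CPM), 8 (53.6 CPM) and 4 (50.5 CPM) lay lower, and the TGFB1 cells of cluster 1 were at 19.7 CPM. Untreated cells were at 43.4 CPM in cluster 7 and 26.9 CPM in cluster 9, and between 12.7 and 14.0 CPM in clusters 1, 2 and 6. Only untreated clusters 7 and 9 were neighbours in this order whose intervals did not overlap. Cluster 5 is a low-RNA group (median 2571 UMIs per cell), and P4HA3 was seen in 19.7% of its unthinned cells against 54.2% in cluster 0, although the CPM values were alike.

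P4HA1 and P4HA2 followed the library with smaller steps. P4HA1 ranged from 131 CPM (cluster 1) to 243 CPM (cluster 7) with TGFB1 and from 106 CPM (cluster 6) to 223 CPM (cluster 7) untreated. P4HA2 ranged from 150.4 CPM (cluster 1) to 279 CPM (cluster 4) with TGFB1 and from 131 CPM (cluster 6) to 261 CPM (cluster 7) untreated. All 9 TGFB1 groups were above untreated clusters 1, 2 and 6 for P4HA1, P4HA3 and PLOD2, and 8 of 9 were for P4HA2 and for PLOD1. The number was 5 for P3H1, 2 for PLOD3 and 0 for CRTAP, SERPINH1 and FKBP10. Fewer TGFB1 groups were above the highest of all 5 untreated groups, clusters 7 and 9 included. That number was 8 for P4HA3, 5 for P4HA2 and 2 each for P4HA1, PLOD2 and PLOD3. It was 1 each for PLOD1 and P3H1, and 0 for CRTAP, SERPINH1 and FKBP10. Such counts were not made over all genes, so they have no background share.

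**Figure D4:**
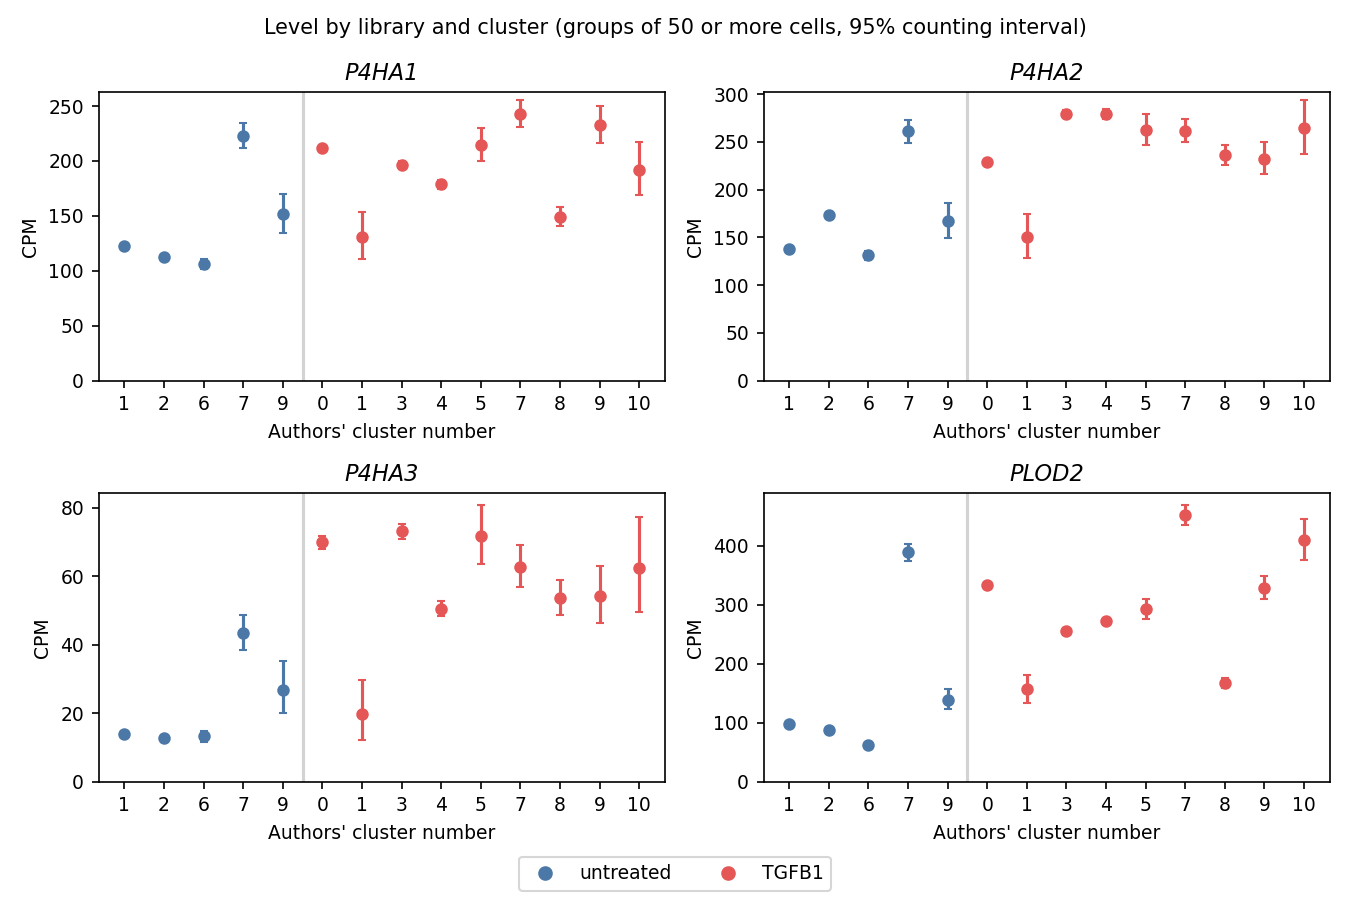
CPM (vertical axis, from 0) of P4HA1, P4HA2, P4HA3 and PLOD2 in each library and authors' cluster of 50 or more cells, with 95% counting intervals; blue is untreated and red TGFB1. Untreated cluster 7 stands above the other untreated clusters in all 4 panels, at 389 CPM for PLOD2.

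Untreated cells of cluster 7 carried more of P4HA1, P4HA2, P4HA3 and PLOD2 than the other untreated clusters. For P4HA3 they stayed below 8 of the 9 TGFB1 clusters. Cluster 7 held 274 untreated cells, 3.38% of the library, and 303 TGFB1 cells. Those 3.38% of cells held 15.1% of all untreated PLOD2 UMIs and 11.8% of P4HA3 UMIs. Against untreated clusters 1 and 2, PLOD2 was at 389 and 94.6 CPM, a ratio of 4.11 (3.94 to 4.28), and P4HA3 at 43.4 and 13.5 CPM, a ratio of 3.22 (2.84 to 3.64). P4HA1 (1.88), P4HA2 (1.72) and P3H1 (1.65) were also past 1.5-fold. PLOD1 (1.49), SERPINH1 (1.19), FKBP10 (1.09), PLOD3 (0.933) and CRTAP (0.902) were not. Of 10993 genes compared in this way, 9.02% passed 1.5-fold upward and 8.29% downward. No test was made, since the clusters may rest on these genes.

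Collagen genes were higher in that cluster too. Among 21 collagen chains measured there, 11 passed 1.5-fold upward and 3 downward. Their median log2 ratio was 0.64, against -0.03 over all genes. COL1A1 was at 13112 CPM in untreated cluster 7 and 6954 CPM in untreated clusters 1 and 2. SMAD-responsive genes had 11 of 17 higher and none lower (median 0.70), and targets of hypoxia-inducible factors 9 of 19 higher and 1 lower (median 0.58). The cytokine gene IL11 was at 8.18 and 2.74 CPM. The summed level of 5 epithelial markers was 301 CPM in untreated cluster 7, against 16.3 CPM in the lowest untreated cluster, and in TGFB1 clusters it ranged from 31.3 to 306 CPM. Nearly all of it was the keratin KRT18 (295 CPM), while EPCAM and KRT5 were at 0 in the cluster 7 cells of both libraries. CDH1 was at 2.92 CPM in untreated cluster 7 and 0.354 CPM in untreated clusters 1 and 2, and KRT8 at 3.51 and 2.18 CPM. The part of these markers in the result was not tested.

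Within clusters that held 50 or more cells of both libraries, the ratios of P4HA1, P4HA2, P4HA3 and PLOD2 were all smaller than between the whole libraries. In cluster 7, the ratio was 1.16 (1.10 to 1.23) for PLOD2, 1.44 (1.24 to 1.68) for P4HA3, 1.09 (1.01 to 1.17) for P4HA1 and 1.00 (0.938 to 1.07) for P4HA2. SERPINH1 (0.878) and FKBP10 (0.896) were below 1 there, with intervals that left out 1. In cluster 9, with 108 untreated and 183 TGFB1 cells, it was 2.36 (2.07 to 2.71) for PLOD2, 2.01 (1.47 to 2.79) for P4HA3, 1.54 (1.34 to 1.77) for P4HA1 and 1.39 (1.22 to 1.59) for P4HA2. CRTAP was at 0.773 (0.673 to 0.889) in cluster 9. In cluster 1, where 56 TGFB1 cells lay among 3687 untreated ones, PLOD2 had a ratio of 1.59 (1.36 to 1.84), and the intervals of the other 9 genes included 1.

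**Figure D5:**
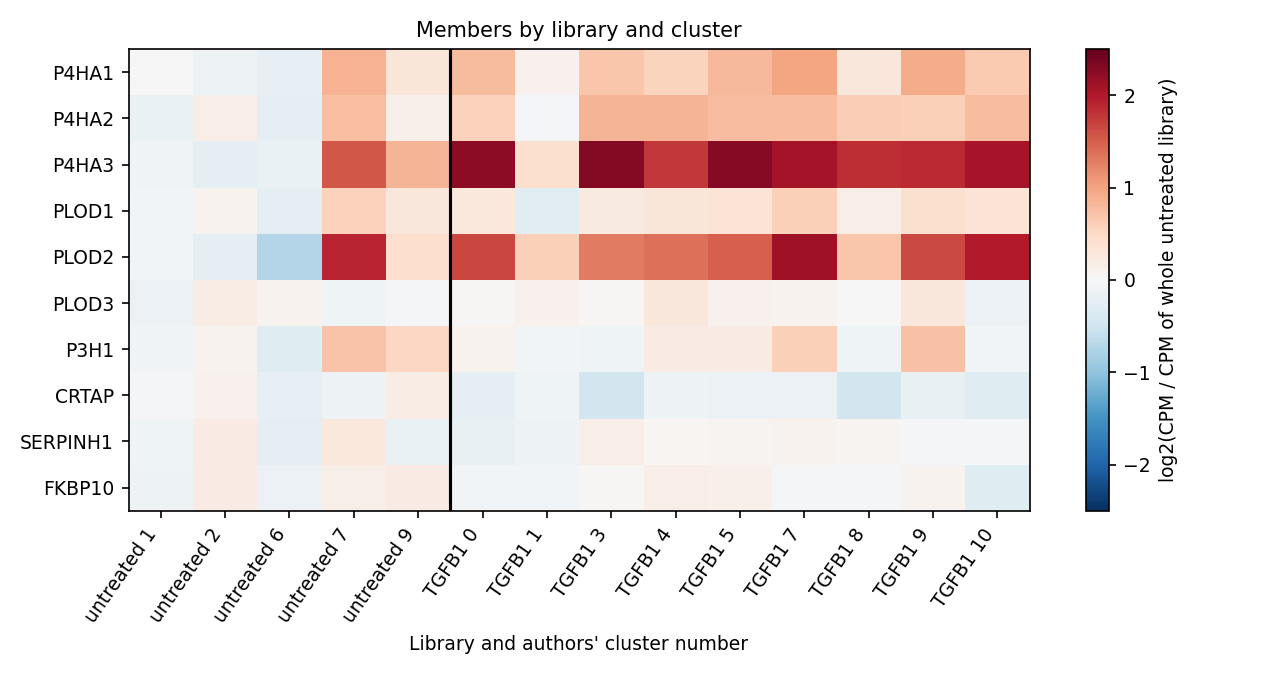
Colour gives the log2 ratio of each gene's CPM in a library and cluster (columns) to its CPM in the whole untreated library; red is higher, blue lower, and the black line separates the libraries. P4HA3 and PLOD2 are red in untreated cluster 7 as in the TGFB1 clusters, while SERPINH1, FKBP10, PLOD3 and CRTAP stay pale in all columns.

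The genes most like each of 3 members over the 14 groups were sought among 6680 genes at 20 CPM or more. For PLOD2 they were the adenylate kinase gene AK4 (Pearson r 0.986), N-cadherin CDH2 (0.966) and the amino acid transporter SLC7A5 (0.963). For P4HA3 they were the small GTPase gene MRAS (0.973), IER3 (0.966) and ENC1 (0.966). For SERPINH1 the highest values were lower, with P4HB at 0.748, NAA10 at 0.738 and TMED10 at 0.708. Over the 9 TGFB1 groups alone, AK4 had 0.970 with PLOD2 and MRAS 0.937 with P4HA3. The groups share libraries, so these values describe the likeness and were not tested.

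The other genes that modify or fold collagen differed in both directions. Among 20 measured, 3 passed 1.5-fold upward and 1 downward. Their median log2 ratio was 0.09, against -0.10 over all genes. The higher ones were the disulfide isomerase TXNDC5 (218 and 362 CPM), the prolyl isomerase FKBP14 (51.6 and 84.7 CPM) and the chaperone HSPA5 (246 and 378 CPM). The collagen galactosyltransferase COLGALT2 was lower, at 8.15 and 3.56 CPM. Of 23 genes of procollagen export, 5 were higher and none lower (median 0.25). They were the transcription factor CREB3L2 (73.9 and 172 CPM), the coat proteins SEC23B (15.5 and 28.4 CPM), SEC23A (106 and 177 CPM) and SEC24D (142 and 218 CPM), and the retrieval receptor KDELR3 (95.4 and 144 CPM).

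Of 22 collagen chains measured, 6 were higher and 1 lower (median 0.33). COL5A1 was at 244 and 516 CPM, and the lower one, COL14A1, at 9.15 and 3.94 CPM. Of 12 genes of cross-linking and procollagen processing, LOXL3 (9.29 and 15.4 CPM) and SPARC (3393 and 5767 CPM) were higher. In that list DCN (2010 and 771 CPM) and LUM (599 and 294 CPM) were lower, and the median was -0.06. Lysyl oxidase itself, LOX, which acts on lysines and hydroxylysines, was at 1460 and 1638 CPM, named after its value was seen.

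Other oxygenases that use 2-oxoglutarate passed 1.5-fold upward about as often as all genes did (8.45%). Of 24 measured, 2 were higher, JMJD6 (12.9 and 26.2 CPM) and the histone demethylase KDM3A (18.4 and 32.2 CPM), and PHYH was lower (28.3 and 14.9 CPM), with a median of 0.09. Of 17 genes that supply ascorbate, iron or 2-oxoglutarate, 3 were higher and 3 lower (median -0.04). The glucose and dehydroascorbate transporter SLC2A1 was at 7.03 and 16.6 CPM and GSTO2 at 4.63 and 11.9 CPM. The ferritin genes FTH1 (10489 and 4681 CPM) and FTL (8014 and 3659 CPM) and IDH1 (51.8 and 33.5 CPM) were lower. Both ferritin genes have many near-identical pseudogene copies, so their counts are uncertain.

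Targets of hypoxia-inducible factors, which include P4HA1, P4HA2 and PLOD2 in many cells but were counted here without them, differed in both directions. Among 19 measured, 7 passed 1.5-fold upward and 3 downward, and the median was 0.55. The higher ones were ANKRD37 (30.5 and 90.2 CPM), SLC2A1 (7.03 and 16.6 CPM), VEGFA (39.2 and 81.1 CPM), BNIP3 (147 and 273 CPM), KDM3A, NDRG1 and PFKFB3. SLC2A1 and KDM3A were also counted in the lists of the paragraph before. ADM (123 and 11.1 CPM), the carbonic anhydrase CA12 (24.1 and 5.32 CPM) and ANGPTL4 (15.1 and 8.91 CPM) were lower. Among 19 SMAD-responsive genes, 17 passed 1.5-fold upward and none downward, and their median was 1.66. PMEPA1, an inhibitor of the pathway, was at 17.0 and 142 CPM.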

How the data were processed

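Single-cell transcriptomes of 2 libraries, untreated and TGFB1, were used. The authors deposited 1 count matrix of unnormalized UMIs, 38606 genes by 20656 cells, for both libraries. Their deposited cell annotation lists library, cluster (resolution 0.4), total counts and the percent of mitochondrial UMIs, which was at most 5.00%. Cell Ranger 9.0.1 is named with Seurat and GRCh38, per the submitters' processing notes, with no roles. The gene annotation and the use of strand are not given.

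Counts were summed by library, and by library and cluster in groups of 50 or more cells, and divided by the total to give CPM. Ratios carry exact conditional binomial (Clopper-Pearson) intervals, sums exact Poisson and shares exact binomial ones, at 95%. A gene entered counts if it had 5 CPM or more in 1 library, and was called at 1.5-fold. Thinning drew UMIs without replacement and left 7646 and 9330 cells. Doublets were not called, so any were kept. edgeR 4.0.16 in R 4.3.3 gave only TMM factors. The rest ran in Python 3.11.15 with scipy 1.17.1, numpy 2.4.6, matplotlib 3.10.9 and pandas 2.3.3. Positions are from GENCODE release 29. A count of 0 would allow 3 UMIs, or 0.0178 CPM untreated and 0.0144 CPM with TGFB1.

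The members and 8 gene lists were chosen with earlier results of these data known. Named genes were all members, up to 4 genes of each list with the largest absolute log2 ratio, every gene past 1.5-fold where 5 or fewer were past it, and the 3 genes most like P4HA3, PLOD2 and SERPINH1 by log2(CPM + 1). Other genes were named after their values were seen. Not every gene picked by this rule is reported here. In simulated counts of TGFB1 against untreated for 10928 genes, all 100 genes raised 2-fold and all 100 lowered 4-fold passed 1.5-fold. No unchanged gene did, and intervals held the true ratio in 95.5% of genes. The simulated counts held counting error only and no variation between libraries, so they check the calculation and not the calls.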

Additional observations from a re-analysis of the deposited data

How the results depend on the processing

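The count of 4 members at least 1.5-fold higher and 0 lower held under all 11 alternative scalings and cell selections, 1 of which (leaving out 36 cells with a barcode found in both libraries) was chosen after seeing the data. At 2-fold, 2 members were higher (P4HA3 and PLOD2) and 0 lower, against 3.61% and 6.05% of all genes. The median log2 ratio of the 10 genes was 0.18. TMM factors gave 0.34 and median-of-ratios factors 0.37, since they move every log2 ratio by 0.15 and 0.19, the median of all genes included (0.05 and 0.09). Over the 11 alternatives the ratio ranged from 1.60 to 1.86 for P4HA1, 1.62 to 1.89 for P4HA2, 4.07 to 5.01 for P4HA3, 2.71 to 3.22 for PLOD2 and 1.18 to 1.38 for PLOD1. No ratio past 1.5-fold changed direction. Of 32 list counts recomputed at 1 or 20 CPM, 7 moved by more than 1.5 times. No paired analysis was possible because each group holds 1 library. Depth limits the small groups most: the P4HA3 value of TGFB1 cluster 1 rests on 22 UMIs.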

Other observations

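Detection of the 4 higher genes in the same cell was counted in each library. They were picked as higher in the TGFB1 library, so more joint detection there follows from that choice. After thinning to 7500 UMIs, 2.43% (2.10 to 2.80) of cells in the untreated library held all 4 of P4HA1, P4HA2, P4HA3 and PLOD2, and 18.3% (17.6 to 19.2) in the TGFB1 library. The product of their separate shares is 1.58% and 17.1%. Cells with none of the 4 made up 9.99% and 0.997%, where the product is 8.36% and 0.575%.

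Cells with and without an IL11 UMI were compared within each library after thinning. In the TGFB1 library P4HA3 was at 64.3 CPM in 4884 cells with and 61.4 CPM in 4446 cells without IL11, and PLOD2 at 289 and 277 CPM. Within cluster 0 the values were 72.7 and 64.5 CPM for P4HA3 and 343 and 315 CPM for PLOD2. In the untreated library, where 166 cells held an IL11 UMI and 7480 did not, P4HA3 was at 28.1 and 15.2 CPM, a ratio of 1.85 (1.28 to 2.60). PLOD2 was at 126 and 96.3 CPM there, a ratio of 1.31 (1.11 to 1.54). The untreated cells were not split within a cluster. Untreated cluster 7 held more IL11 than untreated clusters 1 and 2 (8.18 and 2.74 CPM), and more P4HA3 and PLOD2. The part of cluster 7 in the untreated ratios was not tested. The TGFB1 ratios were 1.05 (0.987 to 1.11) for P4HA3 and 1.04 (1.01 to 1.07) for PLOD2. These intervals cover counting error only, and the difference between the libraries was not tested.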
